A study of Caenorhabditis elegans with 2 samples.

Results

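Candidate binding regions of tagged ETS-4 were examined at genes of the Caenorhabditis elegans axon regeneration pathway that runs through the transcription factor CEBP-1. The genes are cebp-1, svh-1, svh-2, kin-2, dlk-1, pmk-3, mlk-1 and kgb-1. They are 8 of 19973 protein-coding genes. A region was given to a gene when its summit lay in the gene body or in the 5000 bp upstream of the 5' end annotated by Ensembl on WBcel235, the assembly also called ce11.

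The study mapped ETS-4, an ETS-family transcription factor, on the chromatin of whole worms by ChIP-seq, which sequences the DNA fragments that come down with a precipitated protein. There was 1 group of 2 biological replicates, with no second condition and no nerve injury or other treatment named in the labels. All worms were young adults of strain RAF1713, of mixed sex, collected at 73 h after growth from L1 larvae that had been starved after bleaching. Every worm carried the insertion rrrSi400 on chromosome II, in which the ets-4 promoter drives ets-4 fused to GFP with the ets-4 3' UTR beside an unc-119(+) rescue marker, together with the mutation unc-119(ed3) on chromosome III. The antibody was described as anti-GFP, although the antibody field of the labels reads ets-4, and the tag is called eGFP in one place and GFP-FLAG in another. ETS-4 was therefore measured through an added tagged copy, and the labels name no change at the gene's own locus. The signal is a sum over all tissues of the animal, so binding in neurons and binding elsewhere cannot be told apart. A control file entered the authors' region calls, but no untagged or mock precipitate was analysed here.

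The 4 deposited lists hold candidate regions with the authors' signal value for each, a score of enrichment. Lists for replicate 1, for replicate 2 and for the reads of both pooled have 30000 regions each and include background as well as peaks, per the text deposited beside them. The fourth list holds the 1102 regions kept on the irreproducible discovery rate (IDR), a measure of how well ranks repeat between replicates, and these were exactly the 1102 pooled regions with the highest signal. Signals ran from 21.7 to 429.9 in the pooled list, from 11.6 to 195.0 in replicate 1 and from 14.4 to 273.3 in replicate 2. Signal was compared only within a list, so ranks are given, with rank 1 the strongest. Read numbers are unknown for all lists, and with 1 group there is no contrast to test: everything below is description. Summit positions are given in bp from the annotated 5' end of the gene, with a minus sign for upstream and a plus sign for downstream.

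The proteins of these genes form linked signalling routes that are known from worm motor neurons. After an axon is cut, the growth factor SVH-1 acts through the receptor tyrosine kinase SVH-2 on a JNK cascade that includes the kinase kinase kinase MLK-1 and the kinase KGB-1, while the kinase kinase kinase DLK-1 acts through the p38 kinase PMK-3 and raises CEBP-1, a bZIP factor of the C/EBP family. ETS-4 is known to join this network when cyclic AMP releases protein kinase A from its regulatory subunit KIN-2: phosphorylated ETS-4 then works with CEBP-1 to switch on svh-2 in injured neurons. ETS factors generally recognise a core of GGAA, GATA factors recognise sequences such as TGATAA, and bZIP factors recognise longer palindromes.

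The sequences that the results turn on are given here, from the RefSeq copy of the same assembly, each read 5' to 3' on the strand of its gene. They are the stretch at the strongest cebp-1 summit that resembles a C/EBP site (chrX:1454509-1454538, minus strand), a pair of GATA-type matches at the svh-2 region upstream of the gene (chrX:6551779-6551806 and chrX:6551806-6551833, plus strand), the GGAA nearest to the summit in the mlk-1 promoter (chrV:5065003-5065028, minus strand), the GGAA nearest to the strongest kin-2 summit (chrX:5973625-5973650, minus strand) and, for comparison, the palindrome at the strongest fos-1 region (chrV:6000446-6000475, plus strand). Capitals mark the matched letters, and a match on the other strand shows as its reverse complement. Distances between a match and a summit are taken from the middle of the match, rounded to whole bp.
cebp-1: attgccgccgaTTTCGCAAtactttgcgcc
svh-2, distal match: agacataacgtTTATCAgttgcggtgac
svh-2, proximal match: catcaccagatTTATCAgacattttcac
mlk-1: aaaaacagcggGGAAgaagacgtgta
kin-2: ttgaaaaattcTTCCaatccattttc
fos-1: atcacgggggaTGACGTCAtgccgattcat

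Of the 8 genes, cebp-1 and dlk-1 had an IDR region, 1 each, while svh-1, svh-2, kin-2, pmk-3, mlk-1 and kgb-1 had none. Across all protein-coding genes, 8.17% had an IDR region by the same rule, so 2 of 8 rests on very few genes, which were not chosen blind to these data. All 8 members had a region in the pooled list, in the replicate 1 list and in the replicate 2 list, but so did 82.2%, 86.1% and 83.3% of all genes, and presence in those lists therefore says little about any gene. The pooled regions of the members numbered 49, or 0.543 per kb of window against 0.32 per kb over all genes. The rate was below 0.32 at svh-2 (0.188) and kgb-1 (0.212) and above it at the other members, up to 1.08 at dlk-1. Replicate 1 had 35 regions in the windows (0.388 per kb against 0.32) and replicate 2 had 47 (0.521 against 0.319). Of the 49 pooled summits, 21 lay upstream of the gene, 17 in coding exons, 10 in introns and 1 in a 3' UTR. By the strongest region in each window, the members had a median pooled rank of 3980.5, against 7751 for the 16408 genes with a region. The same medians were 3301.5 against 7949 in replicate 1 and 7485 against 7797 in replicate 2, so the members stood ahead of other genes by much less in replicate 2. The members' windows were also longer than usual, with a median of 12065 bp against 7027 bp. The part of window length in these rates and ranks was not tested.

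**Figure D1:**
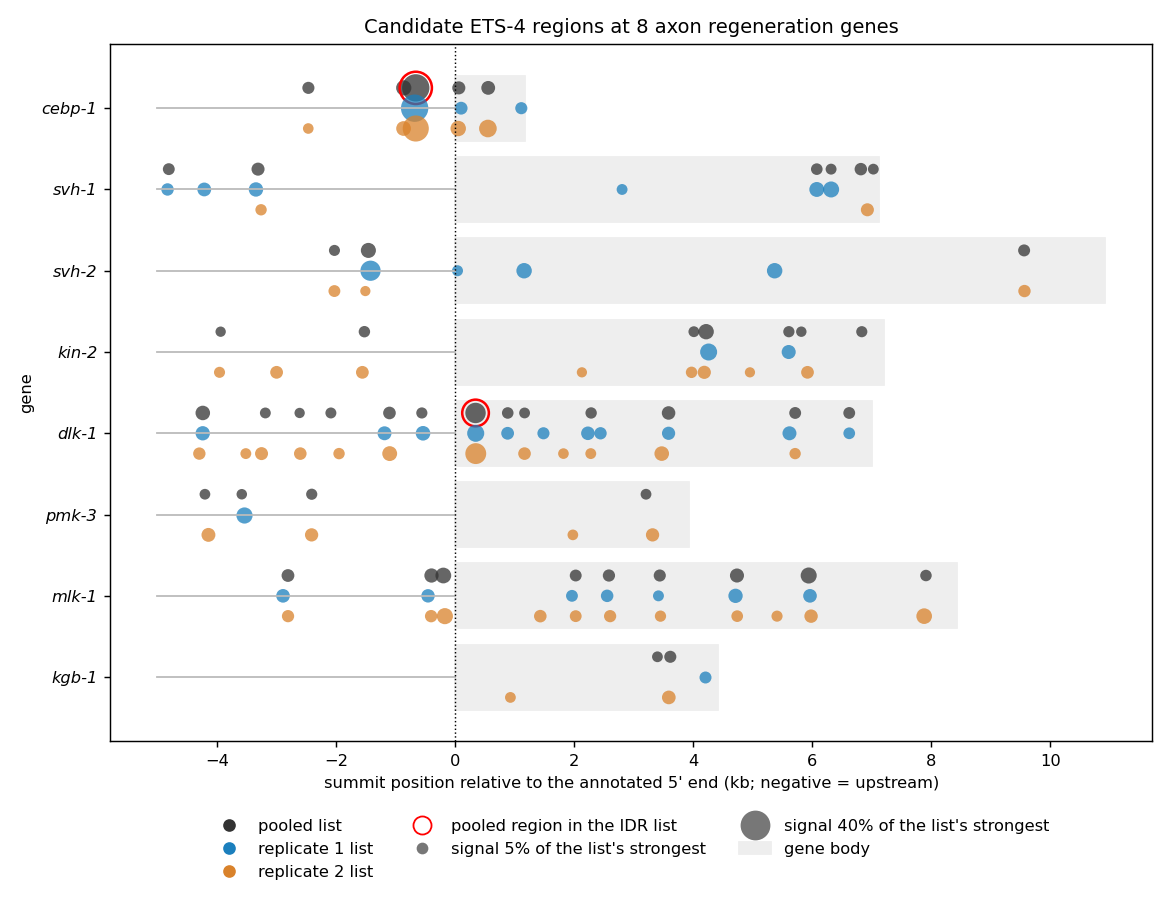
Map of candidate regions at the 8 genes, with the summit position in kb from the annotated 5' end on the x axis and a row of points per list for each gene. Point area stands for the signal as a share of the strongest region of the same list, grey boxes are gene bodies and red rings mark the IDR regions. The largest points are those at cebp-1, at -660 bp in the pooled list, and rings appear at cebp-1 and dlk-1.

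The transcription factor gene cebp-1 held the strongest region of the 8 genes in every list. The gene is short (chrX:1452695-1453868, minus strand), and its IDR region at chrX:1454343-1454712 had its summit at -660 bp, inside the promoter, taken as the last 1000 bp before the 5' end and the first 200 bp after it. Its signal was 164.1 and its rank 105 in the pooled list, which is 38.2% of the strongest signal there. In replicate 1 the region had a signal of 74.6 and rank 79, with the summit 19 bp away from the pooled summit. In replicate 2 it had a signal of 95.1 and rank 136, with the summit at the same base. Few genes had a stronger region: 0.921% of all protein-coding genes had a better pooled rank, 0.721% a better rank in replicate 1 and 1.19% a better rank in replicate 2. The region overlapped no other annotated gene, and the next protein-coding gene upstream, D1005.2, began 5153 bp from cebp-1 on the opposite strand.

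Weaker candidates surrounded that region. A pooled region at -862 bp had a signal of 51.3 (rank 3900), and others lay at +557 bp in the coding exon (42.0, rank 7005), at +63 bp (37.7, rank 9537) and at -2464 bp (32.3, rank 14196). The -862 bp region overlapped the IDR region, and its only counterpart in replicate 1 was the rank 79 region, with the summit 183 bp away. The +557 bp region differed between the replicates: it had rank 1706 in replicate 2 and no counterpart in replicate 1. The -2464 bp region had no counterpart in replicate 1 either. No further pooled region was found upstream until -10303 bp (rank 25091), and the next IDR region on that side was at -87391 bp, nearest to K06A9.2. On the 3' side an IDR region of rank 898, nearest to zfp-3, lay 5672 bp past the end of cebp-1. Between these positions the promoter region of cebp-1 was the only IDR region.

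No ETS-type sequence of those searched stood within 50 bp of the cebp-1 summit. None of CCGGAA or CCGGAT or CGGAAG was present there on either strand, and GGAA was absent too. Within 100 bp GGAA occurred at 1 place. At the overlapping region at -862 bp it occurred at 2 places within 50 bp of the summit. By comparison, GGAA stood within 50 bp of 55.5% of all IDR summits and of 66.1% of pooled summits outside the IDR list, and each of the longer sequences of this type in 1.63% to 3.72% of IDR summits. The cebp-1 sequence printed above does hold a match to the C/EBP-type TTGCNNAA, 4 bp from the summit, on the strand opposite to the gene. This sequence was found at 6.44% of IDR summits and at 8.78% of other pooled summits. The same 8 letters match the looser TTNCNNAA on both strands, which 18.5% and 29.2% of summits hold, and the matches overlap fully. The exact palindrome TTGCGCAA, at 0.363% of IDR summits, was not present in any of the 49 windows of the members. A match of this length is a description of the letters, and occupancy by CEBP-1 was not measured.

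The ligand gene svh-1 encodes a growth factor related to hepatocyte growth factor. The gene (chrIV:8206614-8213741, plus strand) held 6 pooled regions and no IDR region. Its strongest pooled region had a signal of 37.5 and rank 9697 at -3310 bp, with rank 8192 (20.7) in replicate 1 and rank 19851 (18.1) in replicate 2. That summit lies inside the neighbouring gene hgrs-1, which is on the opposite strand and begins 565 bp from svh-1. The remaining upstream region, at -4809 bp (31.0, rank 15529), also lay in hgrs-1. For both upstream regions the nearest 5' end was that of glrx-22, and the -4809 bp summit lay in its promoter. The other 4 lay in the 3' part of svh-1, from +6077 to +7027 bp, with signals of 25.7 to 34.2. All 4 were nearest to the 5' end of C07G1.7, and the +6077 bp summit lay in its promoter. Replicates disagreed on the best region there: replicate 1 had its strongest at +6318 bp (25.5, rank 4194) and replicate 2 at +6927 bp (23.7, rank 10390). No list placed a region within the 1000 bp upstream of svh-1.

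The receptor gene svh-2 (chrX:6553287-6564207, plus strand) encodes a receptor tyrosine kinase related to Met, and it is the known neuronal target of ETS-4 and CEBP-1. It had 3 pooled regions and no IDR region. The strongest had its summit at -1456 bp (chrX:6551646-6552015), with a signal of 49.9 and rank 4215. In replicate 1 the same place was far stronger in rank, with a signal of 40.7 and rank 787 at chrX:6551679-6552054, at the highest q value that this list contains. In replicate 2 it was among the weakest candidates, with a signal of 14.6 and rank 29294 at chrX:6551600-6551959. The replicate summits lay 36 and 51 bp from the pooled summit. Replicate 1 therefore placed this region among its strongest 1102, and replicate 2 placed it near the bottom of its 30000.

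That disagreement was unusual among pooled regions found in both replicate lists. The rank in replicate 2 was 37.2 times that in replicate 1, and 69 of 14336 such regions (0.481%) were at least as far apart in either direction. For the strongest pooled region of the other members the ratio of the larger to the smaller rank was 1.72 at cebp-1, 2.42 at svh-1, 3.59 at kin-2, 4.39 at dlk-1 and 1.27 at mlk-1. The strongest regions of pmk-3 and kgb-1 had no counterpart in replicate 1. Among the 1102 strongest regions of replicate 1 as a whole, 35 (3.18%) had a rank beyond 20000 in replicate 2 and 46 (4.17%) had no counterpart at all. The svh-2 region belongs to the first of these sets.

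**Figure D2:**
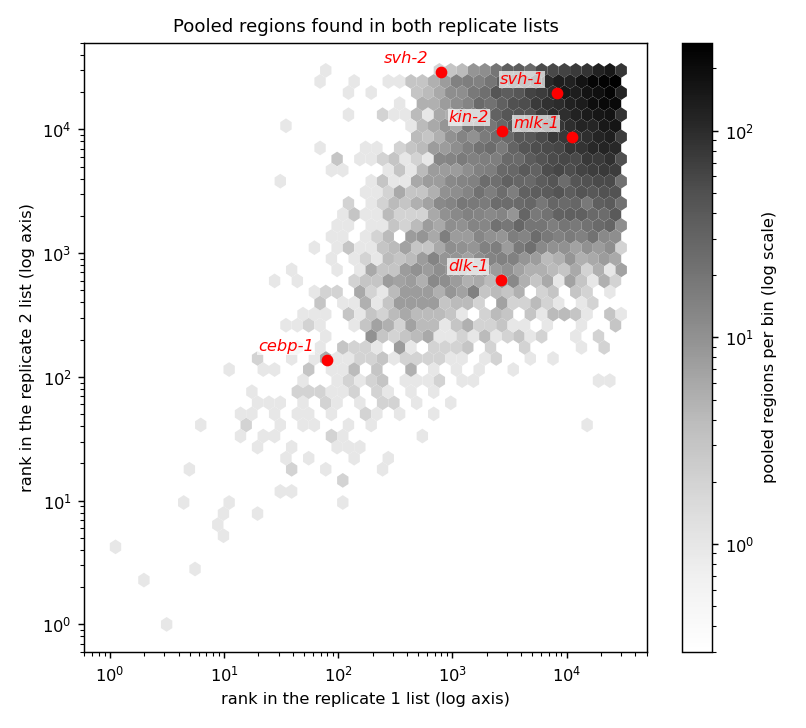
Rank in replicate 2 against rank in replicate 1 for the 14336 pooled regions found in both replicate lists, on log axes, with grey shade for the number of regions per bin. Red points are the strongest pooled region of each member that both lists contain. The cebp-1 point lies toward the strong corner at lower left, at ranks 79 and 136, while the svh-2 point sits at the upper edge at ranks 787 and 29294.

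The remaining svh-2 regions were weak or differed by replicate. In the pooled list they were at -2026 bp (26.9, rank 20863) and in an intron at +9560 bp (31.6, rank 14920). Replicate 1 alone had regions at +41 bp (rank 28009), at +1160 bp (rank 5313) and at +5369 bp (rank 5244). Replicate 2 had its strongest svh-2 region at +9566 bp (21.4, rank 13601). That region and the pooled one at +9560 bp lay in the promoter of aaim-1, at -425 and -419 bp of its 5' end. No list had a strong region at the annotated 5' end itself. The next protein-coding gene upstream, T14E8.2, lies 9303 bp away on the same strand. The ets-4 gene (chrX:6518883-6522667) ends 30.6 kb upstream of svh-2 on the same strand, outside the window, and its own regions were not counted here.

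The svh-2 upstream region differed from the cebp-1 region in its letters. It held the GATA-type sequence TGATAA at 2 places, 38 bp and 12 bp upstream of the pooled summit, both on the strand opposite to the gene and both printed above. It also held GGAA at 2 places, 16 bp and 48 bp downstream of the summit, and none of the longer ETS-type or the C/EBP-type or bZIP-type sequences. TGATAA stood within 50 bp of 27.0% of IDR summits and 9.83% of other pooled summits. Among the 49 pooled summits of the members it was found at 3, those at -1456 bp of svh-2, at +344 bp of dlk-1 and at -2807 bp of mlk-1.

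The kinase regulator gene kin-2 encodes the regulatory subunit of protein kinase A, the protein that holds the kinase inactive until cyclic AMP binds. The gene (chrX:5970647-5977854, minus strand) held 7 pooled regions and no IDR region. The strongest was in an intron at +4218 bp, with a signal of 52.0 and rank 3746, and it overlapped the noncoding RNA genes R07E4.8 and R07E4.9. It had rank 2699 (28.9) in replicate 1 and rank 9697 (24.3) in replicate 2. GGAA lies at 3 places within 50 bp of this summit, with none of the longer ETS-type sequences. The nearest match includes the summit base, and its middle is 2 bp from it. All other kin-2 regions had pooled ranks of 18300 or beyond, and the strongest of them upstream, at -1523 bp (28.8), was found in replicate 2 only, at rank 11592. An IDR region of rank 680 (94.7) lay just outside the window at -6979 bp, and its nearest 5' end was that of klp-13, a kinesin gene on the opposite strand that begins 7134 bp from kin-2. It was not counted for kin-2.

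The kinase kinase kinase gene dlk-1 held the other IDR region. The gene (chrI:12565800-12572801, minus strand) had its IDR region at chrI:12572272-12572641, in an intron with the summit at +344 bp, downstream of the promoter window. Its signal was 91.4 and its rank 758 in the pooled list. Replicate 2 placed it at rank 605 with a signal of 61.0, while replicate 1 placed it at rank 2658 with a signal of 29.0. The summits in both replicates were within 4 bp of the pooled summit. The position thus repeated more closely than the rank, and the region was outside the strongest 1102 of replicate 1. A better pooled rank was found for 5.88% of all genes, a better rank in replicate 1 for 18.2% and a better rank in replicate 2 for 5.07%.

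Regions were also densest at dlk-1, with 13 in the pooled list (1.08 per kb), 11 in replicate 1 and 12 in replicate 2. The pooled summits ran from -4238 to +6622 bp. The next strongest after the IDR region lay at -4238 bp (46.3, rank 5311), at +3587 bp (40.3, rank 7987) and at -1102 bp (35.2, rank 11514). The remaining 9 had signals of 23.4 to 31.0 and pooled ranks of 15585 or beyond. Within 50 bp of the IDR summit there were 2 copies of GGAA and 1 of TGATAA, and the bZIP palindrome TGACGTCA was found at the intronic summit at +885 bp (rank 17360). This palindrome stood at 0.741% of pooled summits outside the IDR list and at none of the other 48 summits of the members.

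The p38 kinase gene pmk-3 (chrIV:8139219-8143154, plus strand) had the lowest strongest signal of the members in the pooled list. That region reached 27.6 (rank 19907) at -2408 bp, and the other 3 had ranks of 22858 to 25106. All 3 upstream summits lie in the neighbouring genes islo-1 and isp-1, of which islo-1 ends 126 bp upstream of pmk-3 on the same strand. The fourth, at +3208 bp in a coding exon, lies nearest to the 5' end of pmk-2, the next p38 gene downstream. Replicate 1 held a single region, at -3545 bp (26.0, rank 3904), and replicate 2 had its strongest at -4143 bp (27.1, rank 7098). The -2408 bp summit was the only one of the 49 with CCGGAA within 50 bp, although its signal was low and it lay in the promoter of isp-1, a gene of the mitochondrial electron transport chain.

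In the JNK cascade, the kinase kinase kinase gene mlk-1 (chrV:5056378-5064811, minus strand) had 9 pooled regions, and the strongest pair had similar signals. The region in a coding exon at +5941 bp had a signal of 56.9 and rank 2873, with rank 11078 (18.6) in replicate 1 and rank 8715 (25.2) in replicate 2. The promoter region at -197 bp had a signal of 54.6 and rank 3256. Replicate 2 had that promoter region at rank 2860 (36.5), while in replicate 1 the overlapping region had rank 11970 (18.1) and its summit 257 bp away, at -454 bp. A second promoter region at -396 bp had rank 5815 (44.8). The coding-exon region ranked higher in the pooled list than in either replicate list. Every mlk-1 region of the pooled list had a counterpart in replicate 2, and 8 of the 9 had one in replicate 1. The promoter regions at -197 and -396 bp shared the same replicate 1 counterpart, that of rank 11970. The promoter summit had GGAA at 2 places, the nearer 8 bp away and printed above, and 1 match to TTNCNNAA.

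The JNK gene kgb-1 (chrIV:405621-410035, minus strand) held 2 pooled regions, both in the gene body, and none in the 5000 bp upstream in any list. They were at +3616 bp in a coding exon (32.1, rank 14395) and at +3400 bp in an intron (25.6, rank 23010). Replicate 2 had a region at +3591 bp (26.2, rank 7872) that overlapped both, and another at +930 bp (16.3, rank 24403). The only replicate 1 region, at +4193 bp in the 3' UTR (14.4, rank 20573), overlapped neither. At kgb-1 the replicates therefore shared no region, and the nearest pooled region upstream was at -5562 bp (rank 25984).

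**Figure D3:**
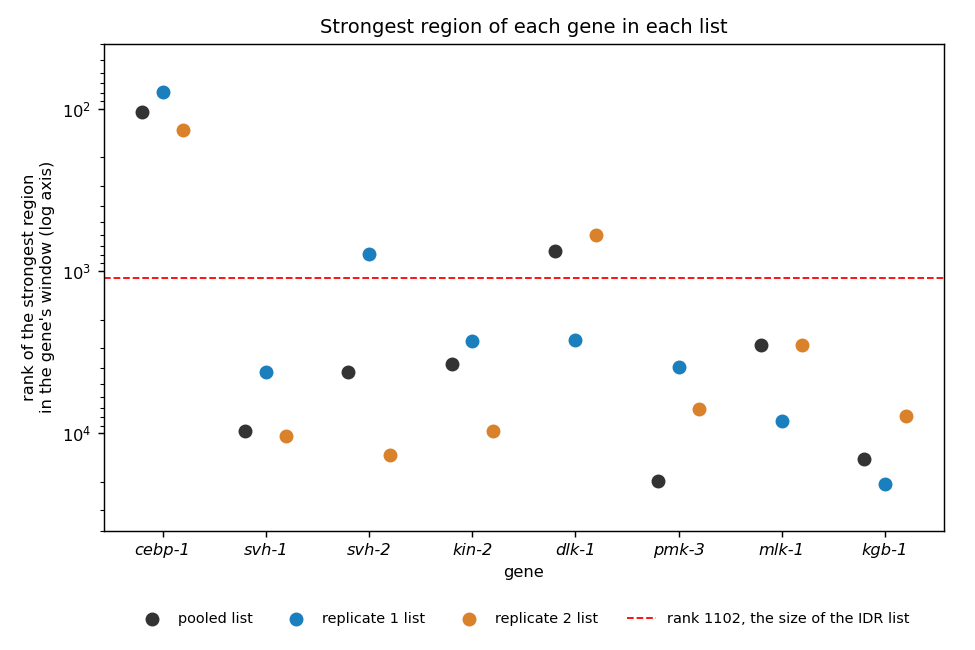
Rank of the strongest region in each gene's window in the pooled, replicate 1 and replicate 2 lists, on a log axis with strong regions at the top; the strongest region need not be the same region in each list. The dashed line is rank 1102, the size of the IDR list. The 3 cebp-1 points lie between ranks 79 and 136, and the only other points above the line are those of svh-2 in replicate 1 and dlk-1 in the pooled and replicate 2 lists.

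When each replicate was read alone, cebp-1 was the only member among the strongest 1102 regions of both. In replicate 1 the members so placed were cebp-1 and svh-2, against 8.32% of all genes, and in replicate 2 they were cebp-1 and dlk-1, against 8.39%. The share of all genes so placed in both replicates was not counted. Of the strongest 1102 regions of replicate 1 as a whole, 575 (52.2%) had a counterpart within the strongest 1102 of replicate 2. At the highest q value of the pooled list, which 1393 regions share, cebp-1 and dlk-1 were again the members found, against 10.2% of all genes. Over the 49 pooled regions of the members, 25 (51.0%) overlapped a region in both replicate lists, 6 in replicate 1 only, 17 in replicate 2 only and 1 in neither. Over all 30000 pooled regions the shares were 47.8% in both, 19.6% in replicate 1 only, 27.3% in replicate 2 only and 5.31% in neither. The members' regions were therefore shared about as often as pooled regions in general.

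Where the 5000 bp limit fell mattered for kin-2 and pmk-3. For kin-2 the outermost region inside was at -3938 bp (rank 26479) and the nearest outside was the IDR region at -6979 bp (rank 680). For pmk-3 they were at -4202 bp (rank 23293) and -5532 bp (rank 5389), the latter stronger than any pmk-3 region inside. For svh-1 and dlk-1 the nearest outside regions were weak, at ranks 23022 and 15370. No pooled region lay between -2464 and -10303 bp of cebp-1, between -2026 and -9571 bp of svh-2 or between -2807 and -16333 bp of mlk-1.

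Over the 49 pooled summits of the members, GGAA stood within 50 bp of 30 (61.2%), between its shares at IDR summits and at other pooled summits. CCGGAA was found at 1 (2.04%), CCGGAT at 2 (4.08%) and CGGAAG at 1 (2.04%), where pooled summits outside the IDR list had 5.11%, 2.93% and 4.42%. TTGCNNAA was found at 4 (8.16%), TTNCNNAA at 9 (18.4%) and the bZIP-type TGANTCA at 3, the last against 2.45% of IDR summits and 2.81% of the others. Base composition also varies between the sets, with a median GC content around the summit of 43.6% for the members, 46.5% for the IDR list and 42.6% for the other pooled regions.

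The regions most like that of cebp-1 were sought among the 1098 other IDR regions present in both replicate lists, by the sum of the absolute differences in log10 rank over the pooled, replicate 1 and replicate 2 lists. The closest was the region upstream of fos-1, which encodes a bZIP factor of the Fos family (chrV:6000289-6000658, at -3127 bp, signal 166.4, ranks 101, 77 and 142, sum 0.0468). It overlapped the noncoding RNA gene C10F3.15, and its summit was 14 bp from the palindrome TGACGTCA printed above. The next were nearest to F15G9.5 (sum 0.0663), inside him-4 and overlapping tRNA genes, and to C41C4.9 (0.0686), overlapping a snoRNA gene. They were followed by regions nearest to sma-6 (0.103), within the gene of that name, and to R12C12.9 (0.117), which overlapped no annotated gene. Likeness here covers 3 ranks and says nothing of function.

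The wider pathway list held 40 genes, the 8 members among them, in 5 groups. An IDR region was found for 9 of the 40 (22.5%), that is for 7 of the 32 genes besides the 8 members as well as for cebp-1 and dlk-1, where 8.17% of all genes had one. The list is rich in long windows: when all genes were put in 5 equal classes by window length, 25 of the 40 pathway genes were in the longest class, of 9321 to 107756 bp. In that class 12.3% of all genes and 8 of the 25 pathway genes had an IDR region. In the other 4 classes the share over all genes ran from 6.26% to 8.84%, and cebp-1 was the only pathway gene with an IDR region there. The part of window length in the count was not tested. This list too was not chosen blind to these data, and its count is a description. A pooled region was found for 35 of the 40 genes (87.5%), near the 82.2% of all genes, with a median best rank of 3161 against 7751 for all genes with a region. No pooled region lay in the windows of mkk-4, cebp-2, brc-2, pmk-1 and ced-10.

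Among the 10 genes of the DLK-1 cascade and its regulators, only cebp-1 and dlk-1 had an IDR region, where 8.17% of all genes had one. The next strongest in this group were uev-3, a ubiquitin-conjugating enzyme variant that works with PMK-3 (rank 1555), and mak-2, the kinase downstream of PMK-3 (rank 1779). The kinase kinase gene mkk-4 and the bZIP gene cebp-2 had no pooled region at all.

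In the JNK group 3 of 8 genes had an IDR region, none of them mlk-1 or kgb-1. The strongest was that of fos-1 described above. The phosphatase gene vhp-1, whose product inactivates these MAP kinases, had 2 intronic IDR regions, at +755 bp (83.1, rank 988, with ranks 3082 and 797 in replicates 1 and 2) and at +7140 bp (92.2, rank 739, with ranks 1685 and 916). The bZIP gene jun-1 had 1 in an intron at +3425 bp (91.7, rank 744, with ranks 1945 and 780). The kinase kinase gene mek-1 came next, at rank 1698. All 3 genes have windows in the longest class, where 12.3% of all genes had an IDR region.

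Of the 10 genes of the SVH group, egl-30 was the only one with an IDR region, against 8.17% of all genes. The gene egl-30 encodes the G protein alpha subunit Gq. It had one region at -116 bp (109.1, rank 445, with ranks 292 and 702) that overlapped the ribosomal protein gene rpl-27 and lay in the promoter of C53H9.4 too. The other lay at +1201 bp in the 5' UTR (101.3, rank 572), where the ranks were 12520 in replicate 1 and 196 in replicate 2. In the pooled list svh-1 and svh-2 ranked below egl-30 and also below tdpt-1 (rank 1252) and sdn-1, the syndecan gene (rank 1458). In replicate 1 the order differed, with svh-2 (rank 787) ahead of sdn-1 (rank 2235) and tdpt-1 (rank 5729), and svh-1 (rank 4194) ahead of tdpt-1.

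Of the 5 genes of cyclic AMP signalling, 2 had an IDR region, against 8.17% of all genes. All 5 have windows in the longest class, where the share over all genes was 12.3%. The gene gsa-1 encodes the G protein alpha subunit Gs, which activates adenylyl cyclase, and its promoter region at -129 bp had a signal of 143.4 and rank 166, with ranks 84 and 341 in the replicates. The phosphodiesterase gene pde-4, whose product breaks cyclic AMP down, had an intronic region at +11967 bp (91.1, rank 766), which replicate 1 had at rank 4382 and replicate 2 at rank 671. In the pooled list kin-2, at rank 3746, stood behind both, while in replicate 1 its rank of 2699 was ahead of that of pde-4. In the last group of 7 genes only ptrn-1 had an IDR region, against 8.17% of all genes. The gene ptrn-1 encodes a protein of microtubule minus ends. Its region lay at -544 bp (89.4, rank 809), with rank 6448 in replicate 1 and rank 519 in replicate 2. Of the 11 IDR regions of the pathway genes, 7 were within the strongest 1102 of replicate 2 but not of replicate 1, namely those of dlk-1, jun-1, pde-4 and ptrn-1, both of vhp-1 and the 5' UTR region of egl-30. The other 4, at cebp-1, fos-1 and gsa-1 and in the promoter of egl-30, were within the strongest 1102 of each replicate. Over all 1102 IDR regions, 731 were within the strongest 1102 of replicate 1 and 874 within those of replicate 2. A lean toward replicate 2 was thus also present in the IDR list as a whole.

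**Figure D4:**
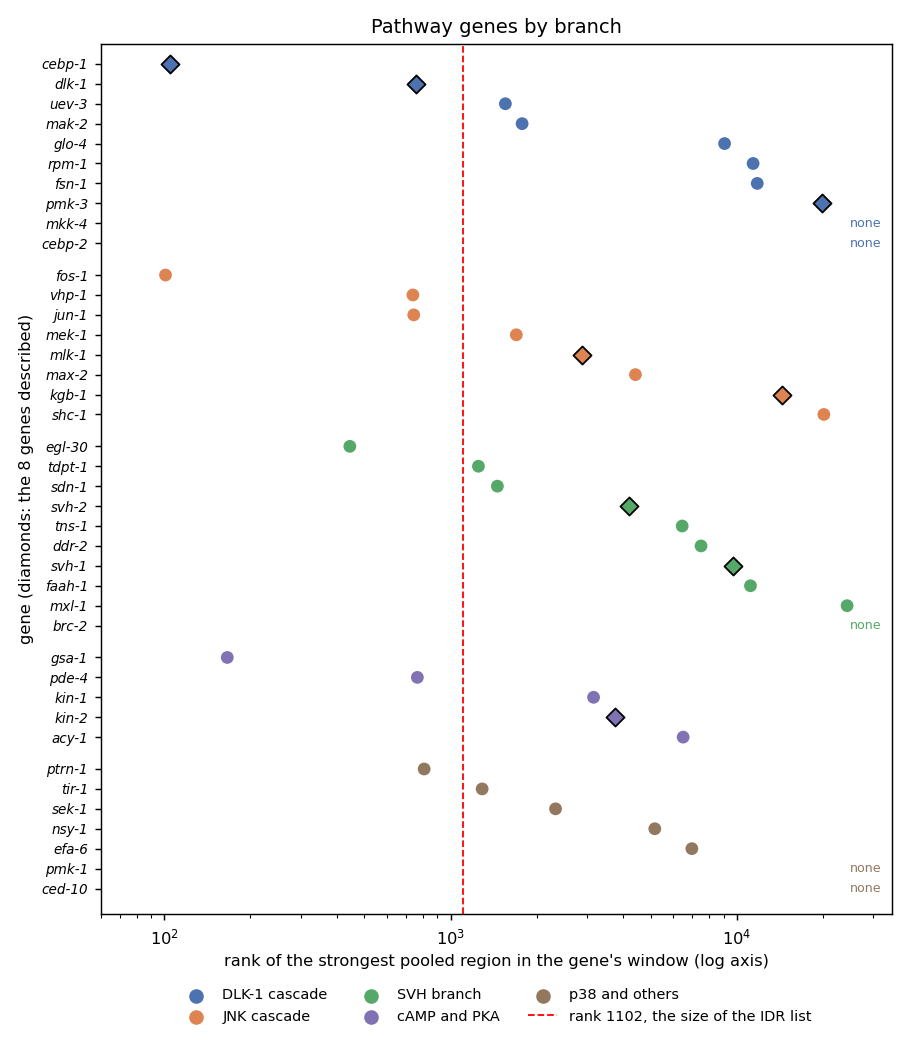
Rank of the strongest pooled region in the window of each of the 40 pathway genes on a log axis, strong regions to the left, in 5 groups by colour. Diamonds are the 8 genes described, the dashed line is rank 1102 and the word none marks a gene with no pooled region. To the left of the line are 9 genes, with fos-1 at rank 101, cebp-1 at rank 105 and gsa-1 at rank 166 the farthest.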

How the data were processed

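The 4 region lists, in narrowPeak layout on build ce11, were used as the authors deposited them. Per the text files beside them, replicate lists came from the alignments of 1 replicate with a control, and the pooled list came from both. The signal value, a score of the caller, was kept as the authors deposited it. The deposited -log10 q served only to find its highest value per list. No aligner, peak caller, IDR threshold or read number is given in the sources used here, so depth and precision per region are unknown.

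Regions in different lists were matched by an overlap of at least 1 bp, taking the nearest summit. Coordinates are 1-based, with genes of Ensembl release 115. Short sequences were searched on both strands within 50 bp of each summit, and this search and the assignment of summits to windows were tested on simulated data. Python 3.11.15, numpy 2.4.6, pandas 2.3.3 and matplotlib 3.10.9 were used.

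The members and gene lists were chosen with earlier results of these data known. Named were the members, pathway genes with an IDR region and the regions most like that of cebp-1. Other genes were named for their position or chosen after their values were seen. The ets-4 gene was left out because the inserted copy shares its reads.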

Additional observations from a re-analysis of the deposited data

How the results depend on the processing

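No paired analysis was possible because there is 1 group. The count of 2 members with an IDR region became 1, cebp-1 alone, with the stronger part of the IDR list (the upper 50% by signal) and with the promoter window of 1000 bp upstream to 200 bp downstream, where the share of all genes fell from 8.17% to 4.55% and 2.59%. It was 2 to 2 with either replicate alone, but without replicate 2 the genes were cebp-1 and svh-2 in place of cebp-1 and dlk-1. With 10000 bp upstream it was 3, since kin-2 was added, against 12.6% of all genes. The count of 9 pathway genes became 4 under the same stricter list and 4 in the promoter window, against the same 4.55% and 2.59% of all genes, and was 7 to 9 with either replicate alone. The median best rank of the members, 3980.5, ranged from 3301.5 to 7485 with either replicate alone. The signal at cebp-1, 164.1 in the pooled list, was 74.6 to 95.1 in the replicate lists, whose scales differ. The members' 49 pooled regions compare with 35 to 47 in the replicates. GGAA stood at 18 of the 49 summits within 25 bp and at 47 within 100 bp. Best ranks of single members moved by 1 SD of the replicates' ranks or more in 10 comparisons with a changed setting, none of them for cebp-1, and by less in 41. That SD came from each member's own 2 replicate ranks, so members whose replicates differed most had the widest limit. For svh-2, a move from rank 4215 to 787 in replicate 1 counted as less. Many of the 41 were unchanged ranks, so the tally says little about stability. In the promoter window svh-1, svh-2, kin-2, pmk-3 and kgb-1 had no region of the pooled list. With unknown read depth, 2 replicates and no untagged sample, the error of a rank is known only from the spread between the replicates.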
